A study of Mus musculus with 6 samples.

Results

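The genes described here are the mouse stefin A genes and 3 other cystatins, small protein inhibitors of cysteine proteases. They were chosen by gene name, with their values in the comparison below already known: Stfa1, Stfa2, Stfa3, Stfa2l1, BC117090, BC100530 and Gm5483 of the stefin A cluster, and Cstb, Cst3 and Cst7. These are 10 of the 53465 rows of the expression table, and all 10 were among the 11020 genes that passed the filter on low values and were tested. The values that chose them are the ones described, so the members' own differences are given as descriptions without a test. The samples came from the mouse leukaemia line Nras(G12D)/MLL-AF9, in which a mutant Nras is combined with a fusion of Kmt2a and Mllt3, and which is labelled with the tissue blood. Both groups grew in RPMI with serum and the recombinant mouse cytokines SCF, IL-3 and IL-6. For 6 days, 3 samples received OMP at 100 µM and 3 received an equal volume of PBS as Vehicle. OMP is 4'-O-methylpyridoxine, or ginkgotoxin, a vitamin B6 analog that inhibits pyridoxal kinase.

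Stefins are cystatins without a signal peptide that act inside the cell, where they bind papain-like proteases such as cathepsins B, H, L and S tightly and reversibly. The mouse carries a tandem array of stefin A genes, whose transcripts are known from neutrophils, other myeloid cells and epidermis, whereas stefin B (Cstb) is a single, widely expressed gene. Cystatin C (Cst3) is secreted by most cell types, and cystatin F (Cst7) is made by immune cells and carried to endosomes and lysosomes, where the dipeptidyl peptidase cathepsin C is among its targets.

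RPKM is a read number divided by gene length and by the library's total. The totals recovered from the deposited values were 3737843 to 4247619 reads in Vehicle and 3494986 to 3720117 reads in OMP. The 11 markers fixed for a myeloid line, among them Ptprc, Spi1, Cebpa, Elane and Itgam, were all detected. Their summed level was 1730 to 1760 RPKM in Vehicle and 1280 to 1320 RPKM in OMP. Most of this sum came from Elane and Lyz2, so its fall cannot stand for all the markers. By limma (Benjamini-Hochberg adjusted p under 0.05), 5 of the 11 were higher and 4 lower with OMP. Over all genes tested, 15.4% were higher and 27.5% lower. Of 6 keratinocyte markers 5 were at 0 in every library (Krt5, Krt14, Krt1, Trp63 and Dsg3), and the summed level of the 6 lay between 0.112 and 0.273 RPKM. Whether the shift among the myeloid markers had a part in the stefin values was not tested, and in bulk RNA more cells of a type and more RNA per cell cannot be told apart.

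The 7 stefin A genes lie within 298.6 kb of chromosome 16 (GRCm38, chr16:36156811-36455392). In map order Stfa2l1 spans chr16:36156811-36161953, Gm5483 chr16:36184212-36188111 and Stfa1 chr16:36276951-36285373, all on the plus strand. BC117090 (chr16:36321665-36334332), BC100530 (chr16:36359382-36367748), Stfa2 (chr16:36403992-36408457) and Stfa3 (chr16:36450537-36455392) follow on the minus strand. Gm5416 and 2010005H15Rik, which are stefin A copies too but no members of the chosen set, lie between Gm5483 and Stfa1. All are annotated as protein coding. The copies fell into pairs and trios by coding sequence: Stfa1 and BC100530 were 97.9% identical, BC117090 and BC100530 95.2%, Gm5483 and 2010005H15Rik 96.9%, and Stfa2 and Stfa2l1 96.4%. Among these copies Stfa3 had no close relative, with 78.0% to 81.6% identity to the others. The stretch of 100 coding bases below is shown because long runs of it are the same in several copies. It ends just past the codons of the loop that cystatins insert into the protease's active site. Capitals mark bases that differ from the commonest base at that place among the 9 copies of the cluster.
Stfa1: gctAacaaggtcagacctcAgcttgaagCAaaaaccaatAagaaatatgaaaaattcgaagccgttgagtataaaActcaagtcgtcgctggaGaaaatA
BC100530: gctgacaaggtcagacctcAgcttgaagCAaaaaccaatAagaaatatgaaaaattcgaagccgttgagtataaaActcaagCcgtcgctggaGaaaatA
BC117090: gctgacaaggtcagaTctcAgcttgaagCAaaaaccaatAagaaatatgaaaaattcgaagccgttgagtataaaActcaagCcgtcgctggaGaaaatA
Gm5483: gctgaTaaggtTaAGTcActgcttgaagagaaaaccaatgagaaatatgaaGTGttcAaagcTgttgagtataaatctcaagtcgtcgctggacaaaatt
Stfa3: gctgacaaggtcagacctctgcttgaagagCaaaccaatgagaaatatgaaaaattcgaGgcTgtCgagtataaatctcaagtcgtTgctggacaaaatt
Stfa2: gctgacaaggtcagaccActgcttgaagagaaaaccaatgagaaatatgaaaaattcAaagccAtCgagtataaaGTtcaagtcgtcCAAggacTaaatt
Stfa2l1: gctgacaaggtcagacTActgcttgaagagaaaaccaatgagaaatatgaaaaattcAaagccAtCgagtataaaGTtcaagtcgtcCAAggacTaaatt
The stretch differed from the commonest bases at 8 places in Stfa1 and in BC100530, at 9 in BC117090, at 11 in Gm5483 and at 5 in Stfa3. Stfa2 differed at 10 places and Stfa2l1 at 11, and these genes share a run of capitals in the loop codons near the 3′ end of the stretch. Of all 50-base windows of the transcript, 64.4% occurred in transcripts of no other gene for Gm5483, 66.3% for BC117090, 66.5% for BC100530, 73.1% for Stfa1, 75.4% for Stfa2l1 and 84.1% for Stfa2. Stfa3, Cstb, Cst3 and Cst7 had 100% unique windows. At 100 bases the lowest shares were 86.5% for BC117090 and 86.9% for BC100530. The sources used here give neither the read length nor the treatment of reads with several matches, so the split of reads within a pair or trio is uncertain, and sums over copies are given beside single genes.

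Summed over the 7 genes, stefin A transcripts stood at 7341.9, 7503.6 and 7626.9 RPKM in Vehicle replicates 1 to 3 and at 26387, 27354 and 25192 RPKM in OMP replicates 1 to 3. All 3 OMP libraries lay above all 3 Vehicle libraries, with means of 7490.8 ± 143 and 26311 ± 1083 (SD, n = 3 each), a 3.51-fold higher sum (log2 fold change 1.81 ± 0.04 SE). As a share of the recovered library total, the 7 genes took 0.304% (Wilson 95% interval 0.299% to 0.310%), 0.309% (0.303% to 0.314%) and 0.316% (0.311% to 0.322%) in Vehicle. In OMP the share was 1.07% (1.06% to 1.08%), 1.10% (1.09% to 1.11%) and 1.02% (1.01% to 1.03%), about 1 in every 100 of the reads so counted. These intervals cover counting error only, since the reads carry no molecular identifiers and need not stem from separate molecules. Shares and intervals rest on Stfa1 reads recovered with a length of 209 bp, and a multiple of that length would raise both. Under quantile normalization, which gives every library the same set of values, the log2 fold change of the sum was 1.16 in place of 1.81.

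Of the 10 members, 9 passed the limma threshold (Benjamini-Hochberg adjusted p under 0.05), 8 of them higher and 1 lower with OMP. Over all genes tested 43.0% passed, 15.4% higher and 27.5% lower. Values of the groups did not overlap for 9 members, 8 higher and 1 lower. The same held for 54.5% of all genes tested, 19.9% higher and 34.6% lower, and since the members were chosen on this contrast nothing is read from these shares. The 7 stefin A genes were each at least 2-fold higher and past the threshold, as were 1.63% of all genes tested. Under quantile normalization BC100530 was below 2-fold, with a log2 fold change of 0.79.

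**Figure D1:**
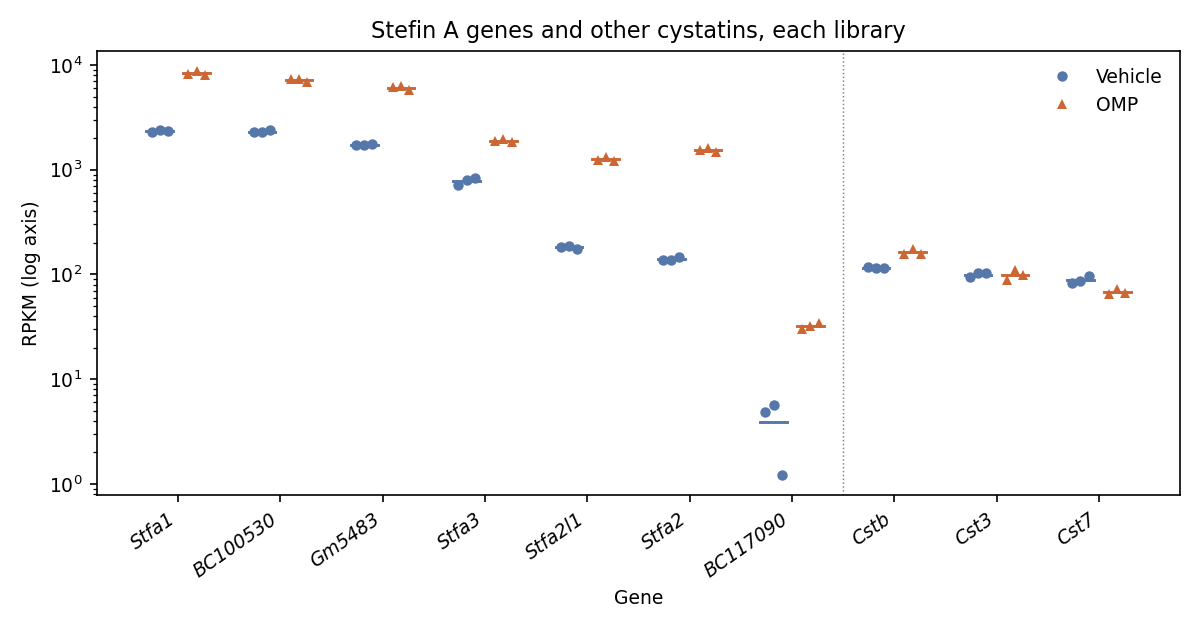
RPKM on a log axis for each member in each library, with circles for the 3 Vehicle and triangles for the 3 OMP libraries and a bar at each group's mean; the dotted line parts the stefin A genes from the other cystatins. The 7 stefin A genes stand higher in every OMP library, Cstb stands slightly higher, Cst3 overlaps and Cst7 stands lower.

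Stfa1, BC100530 and Gm5483 carried most of the sum. Stfa1 was at 2275, 2373 and 2353 RPKM in Vehicle and 8291, 8779 and 8009 RPKM in OMP, 3.58-fold higher. Under quantile normalization its log2 fold change was 1.09 in place of 1.84. It moved from the 7th to the 1st place among all genes ordered by mean RPKM. The gene length behind its RPKM came out as 209 bp or a multiple, and no annotated transcript had such a length. The smallest, 209 bp, is shorter than its coding length of 291 bp. The level and rank of Stfa1 against other genes are therefore uncertain, while its ratio between groups does not depend on the length. Without Stfa1 the sum was 5157.3 ± 105.8 RPKM in Vehicle and 17952 ± 707.4 in OMP, 3.48-fold higher.

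BC100530, the copy closest to Stfa1, was at 2286, 2285 and 2374 RPKM in Vehicle and 7309, 7308 and 6890 RPKM in OMP, a log2 fold change of 1.63 ± 0.03 SE (0.79 under quantile normalization). Gm5483 was at 1738, 1713 and 1742 RPKM in Vehicle and 6110, 6341 and 5744 RPKM in OMP, 3.50-fold higher (log2 fold change 1.81, or 1.10 under quantile normalization). For both genes the lowest OMP library stood far above the highest Vehicle library, and they ranked 8th and 15th among all genes in Vehicle and 3rd and 4th in OMP. The 5′ part of BC100530 overlaps Gm15845, an antisense gene on the other strand, which was listed at 1.23 to 3.55 RPKM in Vehicle and 4.86 to 5.37 RPKM in OMP. The strand setting of the counting is not given, so reads of the pair cannot be told apart, but the antisense gene's listed level was small beside that of BC100530.

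Stfa3, the copy without a close relative, was at 717.5, 804.4 and 832.6 RPKM in Vehicle and 1876, 1967 and 1825 RPKM in OMP. The groups stood apart, with a log2 fold change of 1.27 ± 0.06 SE, the smallest among the stefin A members. All of its 50-base windows were unique, so its value rests least on how shared reads were assigned.

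Stfa2 and Stfa2l1 had low Vehicle levels for the cluster and large ratios. Stfa2 was at 137.2, 136.9 and 146.9 RPKM in Vehicle and 1545, 1603 and 1474 RPKM in OMP, a log2 fold change of 3.45 ± 0.04 SE, or 10.9-fold. Stfa2l1 was at 182.9, 186.0 and 176.3 RPKM in Vehicle and 1226, 1325 and 1216 RPKM in OMP, 6.89-fold higher. In rank, Stfa2 moved from 471st to 22nd and Stfa2l1 from 329th to 30th among all genes. Stfa2 was the lower of the pair in every Vehicle library and the higher in every OMP library. Summed, the pair went from 322.09 ± 1.70 to 2796.3 ± 121 RPKM, 8.66-fold higher, beside 3.34-fold for the trio of Stfa1, BC100530 and BC117090.

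BC117090 was the rare copy. It was listed at 4.84, 5.68 and 1.22 RPKM in Vehicle, from 7, 9 and 2 reads, and at 30.3, 32.0 and 34.0 RPKM in OMP, from 41, 44 and 49 reads. Vehicle replicate 3 stood lowest, and no OMP library came near the Vehicle range. Scaled for depth, the 134 OMP reads against 18 Vehicle reads gave a ratio of 8.35 (exact 95% interval 5.09 to 14.5, counting error of the pooled reads only), and the log2 fold change of 3.08 ± 0.41 SE was 2.503 without Vehicle replicate 3. The 50-base windows of BC117090 that are not unique occur in Stfa1 or BC100530, whose reads are far more numerous, and the part of shared reads in its value was not tested.

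Stfa2, Stfa2l1, Stfa3 and BC100530 held other shares of the sum in OMP than in Vehicle. All shares of RPKM rest on the uncertain length of Stfa1. Stfa2 made up 1.87% ± 0.0509 of the summed RPKM in Vehicle and 5.85% ± 0.00459 in OMP (SD, n = 3). Stfa2l1 held 2.49%, 2.48% and 2.31% in the Vehicle libraries and 4.65%, 4.85% and 4.83% in the OMP libraries. In the other direction, Stfa3 went from 10.5% ± 0.611 to 7.18% ± 0.0669 and BC100530 from a mean of 30.9% to a mean of 27.3%. None of these 4 genes overlapped between the groups in its share. Stfa1 (31.2% and 31.8%) and Gm5483 (23.1% and 23.0%) held nearly the same share in both groups. BC117090 held 0.0659%, 0.0758% and 0.0160% in Vehicle and 0.115%, 0.117% and 0.135% in OMP, with Vehicle replicate 3 well below the others. Shares of recovered reads rest on lengths too, which for Stfa1 (209 bp), Stfa2 and Stfa2l1 were the smallest that gave whole reads. At a multiple of 209 bp Stfa1 would hold a larger share. Counted in these reads, Stfa1 held 15.7% ± 0.272 in Vehicle and 16.4% ± 0.243 in OMP. BC100530 held 46.3% ± 0.407 and 41.6% ± 0.59, and Stfa2 1.92% ± 0.0455 and 6.11% ± 0.0285. The 3 copies with the lowest Vehicle levels, Stfa2l1, Stfa2 and BC117090, were those with the largest ratios, from 6.89-fold to 10.9-fold, while the other 4 lay between 2.41-fold and 3.58-fold.

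**Figure D2:**
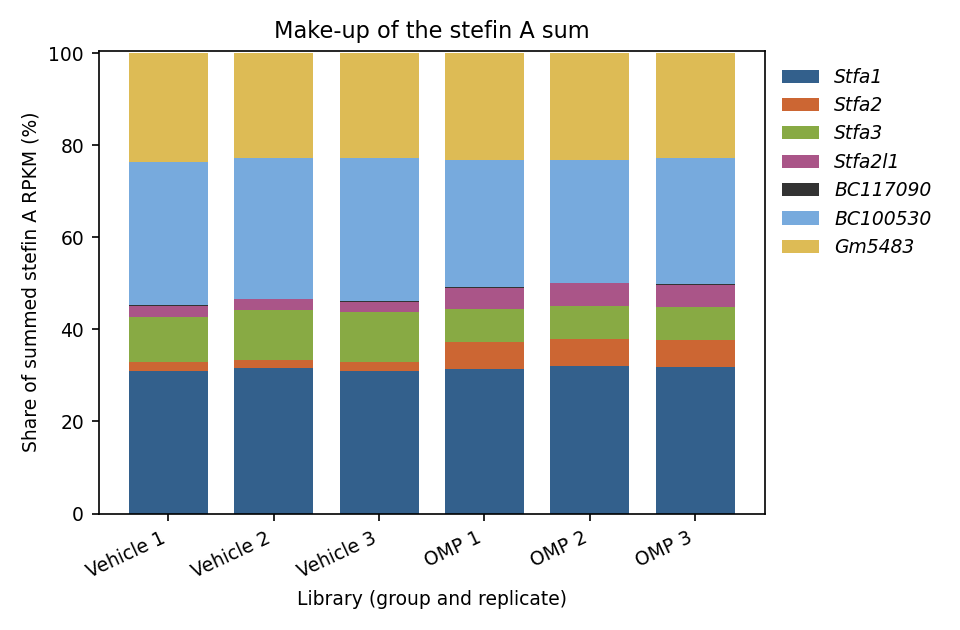
Share of the summed stefin A RPKM held by each of the 7 genes (stacked bars, in %), for each of the 3 Vehicle and 3 OMP libraries. Stfa1, BC100530 and Gm5483 fill most of every bar, and the segments of Stfa2 and Stfa2l1 are wider in the OMP libraries.

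The promoters of the stefin A genes share short stretches with each other. RefSeq (GRCm38.p6) gave a promoter for 6 of the 7 stefin A members and for Cst3 and Cst7; none was matched for BC117090 and Cstb. The 110 bases below lie around or just before the RefSeq start, are written 5′ to 3′ on the gene's strand, and are shown because these genes moved together. Gm5416, a cluster gene outside the chosen set, is added. Capitals mark runs found in all 6 member promoters.
Stfa1, chr16:36277030-36277139, plus strand: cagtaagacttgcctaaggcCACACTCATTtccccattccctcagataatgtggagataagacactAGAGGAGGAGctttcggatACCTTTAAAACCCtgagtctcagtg
BC100530, chr16:36367558-36367667, minus strand: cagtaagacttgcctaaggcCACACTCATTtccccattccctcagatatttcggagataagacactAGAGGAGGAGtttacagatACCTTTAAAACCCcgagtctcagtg
Gm5483, chr16:36184095-36184204, plus strand: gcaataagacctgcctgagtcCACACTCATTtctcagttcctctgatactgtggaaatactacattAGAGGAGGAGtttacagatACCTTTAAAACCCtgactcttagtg
Stfa3, chr16:36455402-36455511, minus strand: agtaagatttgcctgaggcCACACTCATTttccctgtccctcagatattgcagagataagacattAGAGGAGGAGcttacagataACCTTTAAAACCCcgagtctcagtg
Stfa2, chr16:36408371-36408480, minus strand: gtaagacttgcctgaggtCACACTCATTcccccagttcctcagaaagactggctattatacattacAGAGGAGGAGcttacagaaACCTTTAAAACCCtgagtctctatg
Stfa2l1, chr16:36156690-36156799, plus strand: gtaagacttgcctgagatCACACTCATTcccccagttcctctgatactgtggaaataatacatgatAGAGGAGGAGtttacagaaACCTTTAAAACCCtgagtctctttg
Gm5416, chr16:36210238-36210347, plus strand: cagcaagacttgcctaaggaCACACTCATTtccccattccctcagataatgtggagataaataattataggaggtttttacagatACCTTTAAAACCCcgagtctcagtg
The 4 runs were picked as the longest shared by the 6 member promoters, so their presence in these was fixed in advance. In pairs, the 6 promoters were 66.4% to 90.5% identical. The run ACCTTTAAAACCC began 12 to 36 bases before the start in the 6 member promoters. Searched on both strands, it was found in 9 of the 32851 mouse promoters of the same length (0.0274%), and all 9 lie at or beside the cluster: those of the 6 members, Gm5416 (Csta3), Cstdc3 and Gm7260. A further shared run at or near the start, GATCATTTCTTCT, was in 0.0304% of promoters, CACACTCATT in 0.113% and AGAGGAGGAG in 1.03%; Gm5416 holds the first 3 of these 4 runs and 2010005H15Rik none. A C/EBP pattern, TTNNGNAA on either strand, was in 5 of the 6 member promoters and 40.7% of all promoters, and the PU.1 core GAGGAA in 6 of 6 and 28.3%. TATAAA was in none of the 6 and in 13.6% of all promoters. No match of one motif overlapped a match of another in the 6 promoters. The GC content of the 6 member stefin promoters ran from 41.0% to 49.3%, beside 51.7% for 2010005H15Rik, 60.3% for Cst3, 53.3% for Cst7 and a median of 52.7% over all promoters. These matches describe letters in a window of the genome and are not evidence of binding.

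Gm5416 and 2010005H15Rik, the other protein-coding stefin A copies between the outermost members, are not in the chosen set and stand in the list of cystatin relatives. Both rose with OMP. Gm5416 rose from 92.9 ± 9.82 to 732.9 ± 37.6 RPKM (limma log2 fold change 2.98, Benjamini-Hochberg adjusted p = 6.23e-08), and all of its 50-base windows were unique. 2010005H15Rik rose from 354.3 ± 19.2 to 1856 ± 42.2 RPKM (2.39 ± 0.04 SE, limma adjusted p = 7.33e-09). Of its 50-base windows 78.0% were unique, and the others occur in the member Gm5483, so its value is not free of that gene's reads; summed, the pair went from 2085.4 ± 11.2 to 7920.6 ± 340 RPKM, 3.80-fold. With both added, the stefin A sum was 3.64-fold higher.

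Outside the cluster, the flanking genes moved less and in both directions. Within 500 kb on either side, 19 further protein-coding genes are annotated, of which 13 were tested. Past the threshold 5 rose and 3 fell, beside 15.4% higher and 27.5% lower over all genes tested. The median log2 fold change of the 13 was -0.06, beside -0.09 over all genes tested. The largest rises were of Hcls1, a signalling adaptor of blood cells, from 131.4 ± 6.06 to 196.1 ± 3.21 RPKM (limma adjusted p = 2.39e-05), and Fam162a, from 137.8 ± 9.10 to 202.0 ± 8.198 RPKM (limma adjusted p = 1.07e-04). Ccdc58 rose by 0.42 on the log2 scale. Parp9 and Dtx3l, partners in the response to DNA damage and interferon, fell by 0.45 and 0.31, and Dirc2 fell by 0.18. Calls of Dirc2 and Dtx3l were lost under median-of-ratios scaling (limma adjusted p = 0.251 and 0.0564), and those of the remaining rises, Golgb1 and Kpna1, after rescaling to TPM (0.0691 and 0.131). Leaving out 1 library ended the call of Golgb1 (Vehicle replicate 1 or 3 or OMP replicate 1, limma adjusted p = 0.0564 to 0.0692), of Dirc2 (Vehicle replicate 1 or 2 or OMP replicate 1 or 2, 0.0805 to 0.118) and of Dtx3l (Vehicle replicate 3, 0.0627). Csta1, named in one series with Csta2 and Csta3 (RefSeq's names of 2010005H15Rik and Gm5416), was at 0 in all 6 libraries. It lies at chr16:36119946-36131241 and counts as flanking only because the outermost members set the cluster's edges. Its sequence was not compared with those of the copies.

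**Figure D3:**
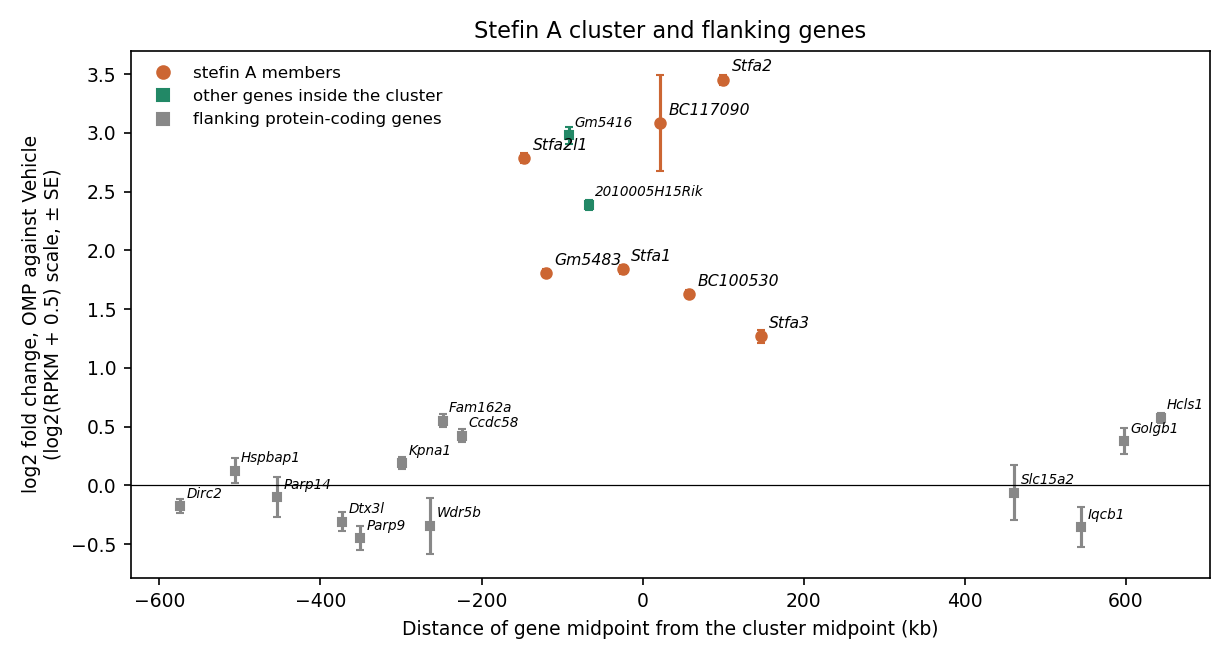
Log2 fold change of OMP against Vehicle (log2(RPKM + 0.5) scale, bars ± SE) for each gene by the distance of its midpoint from the middle of the stefin A cluster in kb; circles are stefin A members and squares other genes. The 9 cluster genes lie between 1.27 and 3.45, and the 13 tested flanking genes between -0.45 and 0.58.

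Among further genes with a cystatin fold, 30 names were listed, 21 of which matched a row, and 5 were tested. The 9 names without a row are not all further genes: Cstdc4, Cstdc5 and Cstdc6 are RefSeq's names of the members Gm5483, BC100530 and BC117090, and Csta2 and Csta3 those of 2010005H15Rik and Gm5416, which the list holds already. Of the 5 tested, 4 rose, including the pair of cluster genes above, beside 15.4% higher over all genes tested. Of the 21 with a row, 14 were at 0 in every library. Ngp, a neutrophilic granule protein, rose from 64.8 ± 3.53 to 314.1 ± 10.9 RPKM (log2 fold change 2.27 ± 0.05 SE, limma adjusted p = 2.11e-08). Camp, the cathelicidin precursor of neutrophil granules, rose from 3.39 ± 0.250 to 10.5 ± 3.62 RPKM (limma adjusted p = 0.00118). Lxn, latexin, a carboxypeptidase inhibitor, fell by 0.31 (limma adjusted p = 0.0193). The call was lost without Vehicle replicate 2 (limma adjusted p = 0.0628) and without Vehicle replicate 3 (0.0544). It was also lost under median-of-ratios scaling (0.0739), quantile normalization (0.0876) and limma-voom on recovered reads (0.0534).

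The cystatins of other chromosomes differed less than the cluster. Cstb (chr10:78425669-78427622, plus strand), which lies 9.12 kb from Pdxk, the gene of pyridoxal kinase, was at 117.1, 115.9 and 114.4 RPKM in Vehicle. In OMP it was at 156.6, 175.1 and 156.9 RPKM, with no overlap and a log2 fold change of 0.49 ± 0.05 SE. Its coding sequence was 52.1% to 61.4% identical to those of the 9 cluster genes.

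Cst3 (chr2:148871722-148875692, minus strand) was at 94.6, 102.9 and 102.1 RPKM in Vehicle and 89.2, 110.6 and 98.2 RPKM in OMP. The groups overlapped, with OMP libraries both below and above the Vehicle range, and the depth-scaled ratio of reads was 0.993 (exact 95% interval 0.908 to 1.09, counting error only, while replicates varied by more than that). Its log2 fold change ran from -0.10 to 0.08 over the alternatives tried. Of 7 dendritic cell markers, which belong to a cell type rich in cystatin C, Clec9a and Siglech were at 0 in all libraries and 2 were tested and higher. The summed level of the 7, nearly all of it from Itgax and Cd74, was 5.80 to 7.80 RPKM in Vehicle and 13.1 to 15.5 RPKM in OMP. The part of these genes in the Cst3 value was not tested.

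Cst7 (chr2:150570415-150578944, plus strand), on the same chromosome as Cst3 at a distance of 1695 kb, was the 1 member that was lower with OMP. It was at 82.5, 85.8 and 95.8 RPKM in Vehicle and 65.3, 72.2 and 66.8 RPKM in OMP. The groups did not overlap, and the log2 fold change was -0.37 ± 0.06 SE, a depth-scaled ratio of 0.772 (exact 95% interval 0.701 to 0.849, again counting error only). Of 7 T and NK cell markers 6 were at 0 in every library, with a summed level of 0.198 to 0.541 RPKM in Vehicle and 0.228 to 0.463 RPKM in OMP. In Vehicle the order of levels was Stfa1 and BC100530, which did not differ beyond their spread, then Gm5483, Stfa3, Stfa2l1, Stfa2, Cstb, Cst3, Cst7 and BC117090, with Cst3 and Cst7 overlapping. In OMP the order was Stfa1, BC100530, Gm5483, Stfa3, Stfa2, Stfa2l1, Cstb, Cst3, Cst7 and BC117090, and no neighbours overlapped.

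The proteases that cystatins bind did not move in a single direction. Of 19 papain-like proteases and legumain listed, 8 were tested and 9 were at 0 in every library. Past the threshold 2 rose and 3 fell, beside 15.4% higher and 27.5% lower over all genes tested. The median log2 fold change of the 8 was -0.13, beside -0.09 over all genes tested. Ctss, cathepsin S, an endosomal protease of antigen-presenting cells, fell from 25.4 ± 1.54 to 9.53 ± 0.523 RPKM (log2 fold change -1.37 ± 0.07 SE, limma adjusted p = 4.97e-06). Ctsh, cathepsin H, an aminopeptidase, fell from 19.2 ± 3.28 to 13.1 ± 1.09 RPKM (limma adjusted p = 0.00916). Ctsc, cathepsin C, which activates granule serine proteases and is a target of cystatin F, fell from 58.3 ± 2.84 to 49.3 ± 2.34 RPKM (limma adjusted p = 0.00829). Ctsl, cathepsin L, rose from 19.4 ± 0.304 to 29.3 ± 1.01 RPKM (limma adjusted p = 8.73e-05), and Ctsb, cathepsin B, from 69.2 ± 3.26 to 80.4 ± 2.25 RPKM (limma adjusted p = 0.00722). Ctsz, cathepsin Z, the most abundant of the list, was at 253.7 ± 14.9 and 248.6 ± 6.64 RPKM (limma adjusted p = 0.665). The Ctsc call was lost under median-of-ratios scaling (limma adjusted p = 0.0579) and the Ctsb call after rescaling to TPM (0.0523).

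Among 4 cathepsins of other catalytic classes, which stefins and cystatins do not inhibit, Ctsd and Ctsg passed the threshold. Over all genes tested 43.0% passed. The 4 are named after their values were seen. Ctsd, an aspartic protease of lysosomes, rose from 158.6 ± 5.97 to 278.6 ± 4.30 RPKM (limma adjusted p = 2.15e-06). Ctsg, a serine protease of azurophil granules, fell from 988.7 ± 20.1 to 472.9 ± 26.5 RPKM (limma adjusted p = 9.69e-07). Ctsa, a carboxypeptidase, was at 53.3 ± 1.91 and 55.1 ± 4.03 RPKM (limma adjusted p = 0.579), and Ctse, an aspartic protease, at 2.38 ± 0.373 and 3.18 ± 0.357 RPKM (0.122). Per kilobase, the stefin A sum of 7 genes stood far above the level of every single cysteine protease listed, in Vehicle (7490.8 RPKM) as in OMP (26311 RPKM). These are RNA levels, and the sum holds Stfa1, whose length is uncertain.

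**Figure D4:**
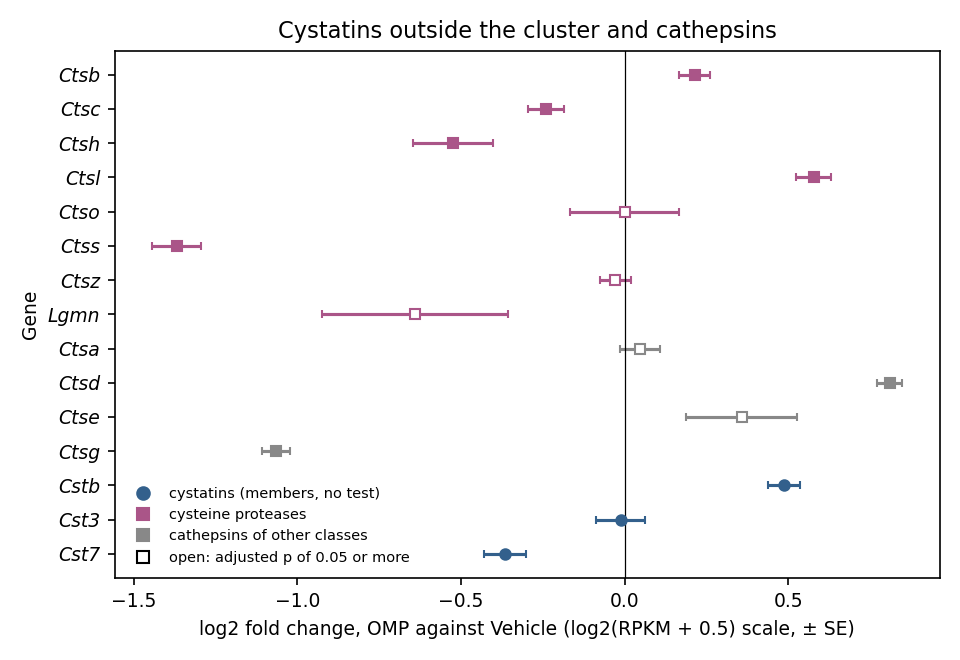
Log2 fold change of OMP against Vehicle (log2(RPKM + 0.5) scale, bars ± SE) for tested cysteine proteases, cathepsins of other classes (squares, open where the adjusted p was 0.05 or more) and the cystatins outside the cluster (circles, no test). Ctss and Ctsg lie farthest to the left, Ctsd farthest to the right.

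Genes whose profile over the 6 libraries was nearest to the stefin A sum were sought among 7849 genes by Euclidean distance between centred log2(RPKM + 0.5) values. The nearest were Lilrb4a (distance 0.166), Cd14 (0.193), Lilr4b (0.206), Hcar2 (0.223) and S100a9 (0.232). Lilrb4a and Lilr4b encode immunoglobulin-like receptors of myeloid cells, Cd14 the co-receptor for bacterial lipopolysaccharide, and S100a9 a subunit of calprotectin, abundant in neutrophils. Cd14, for example, was at 22.5, 23.9 and 24.4 RPKM in Vehicle and 78.1, 76.8 and 73.0 RPKM in OMP. S100a9 stood at 1378, 1376 and 1361 RPKM in Vehicle and 5405, 5625 and 5356 RPKM in OMP, a level close to that of Gm5483. For Cstb the nearest were Elovl1 (0.059), Selenon (0.072) and Rnh1 (0.081), for Cst3 Spg20 (0.063), Tpst2 (0.076) and Gna12 (0.077), and for Cst7 Parp6 (0.093), Ppp2r5d (0.104) and Gtf2b (0.104). With 6 libraries in 2 groups, such a profile is mainly the size of the difference between the groups.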

How the data were processed

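Poly(A)-selected RNA of 6 cultures was sequenced from Illumina TruSeq libraries, per the labels. The deposited values are RPKM, made by the authors; the tools in the submitters' processing notes are featureCounts 1.6.3, STAR 2.5.3a, Trimmomatic 0.36 and FastQC 0.11.5, and the build is mm10 (GRCm38). The read length, strand setting and annotation release were not given in the sources used here. Whole reads were recovered from the RPKM for 19969 of 19970 genes above 0 (relative tolerance 1e-06), which gave the library totals. The gene lengths found equalled an annotated transcript for 94.58% of genes.

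OMP was compared with Vehicle by limma 3.58.1 in R 4.3.3 on log2(RPKM + 0.5) without covariates, with a trended prior. Genes reaching an RPKM of 1 in 3 or more libraries were kept, and two-sided p-values were adjusted by Benjamini-Hochberg over all 11020 genes, with a threshold of 0.05. Log2 fold changes understate the change of low genes. Nothing in the labels says that replicates were grown separately, so the p-values reflect only how these libraries varied, which may be technical variation. Replicates differed by more than sampling noise (chi-square per degree of freedom 1.19 to 1.61), and none was counted as a duplicate.

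The members and the gene lists were chosen with earlier results of these data known. Named genes were all members, in each of the lists of target proteases, cystatin relatives and neighbours up to 5 genes past the threshold with the largest change in each direction and genes with a mean of at least 50 RPKM in a group, and the 5 or 3 genes nearest in profile. Positions and transcripts came from GENCODE M21 (GRCm38), which may not be the release used for counting, and promoters from RefSeq (GRCm38.p6). The procedure was also run on simulated data with fewer and smaller changes than these data hold, and no result here rests on that run. Alternatives were other pseudocounts, filters, scalings and priors, a replicate block and leaving out each library. Limma-voom on the recovered reads and changes to the genes in the stefin sum were added after seeing the data.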

Additional observations from a re-analysis of the deposited data

How the results depend on the processing

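The log2 fold change of the summed stefin A genes, 1.81, was 1.73 after rescaling to TPM, 1.90 with median-of-ratios scaling, 1.16 with quantile normalization and 1.86 with Gm5416 and 2010005H15Rik added, and the causes were not tested. Leaving out 1 library at a time gave 1.78 to 1.84. Of 150 values of single members under alternatives 19 moved by at least 1 SD, among them Stfa1 (1.09), BC100530 (0.79) and Gm5483 (1.10) under quantile normalization. Called genes numbered 4735 (1702 higher, 3033 lower). Under the alternatives they numbered 3952 to 5332, with 2368 higher and 2238 lower under median-of-ratios scaling, 2244 and 2321 under quantile normalization and 1223 and 3922 after rescaling to TPM. Called proteases numbered 4 to 6, cystatin-fold relatives 4 to 5 and neighbours, with Gm5416 and 2010005H15Rik of the cluster counted among 15 tested, 8 to 11 (10 as reported).

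Replicate numbers did not pair the libraries: the deviations of same-numbered libraries correlated by -0.00244, 0.0155 and 0.00694. With the replicate number as a block the stefin A sum stayed at 1.81, 4445 genes were called, and of the list calls only Dirc2 was lost (limma adjusted p = 0.072). Depth limits BC117090, with 18 Vehicle reads in all.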
